A study of Mus musculus with 4 samples.

Results

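The genes described here are 7 chains of the fibrillar collagens, the proteins that assemble into the banded fibrils of connective tissue: Col1a1 and Col1a2 (type I), Col3a1 (type III), Col5a1, Col5a2 and Col5a3 (type V) and Col11a1 (type XI). They were matched by gene symbol among the 32285 genes of the count tables, and 7 of 7 were found. The tables come from single-cell RNA sequencing of mononuclear cells of the quadriceps and the diaphragm, taken at 14 weeks of age from wild-type (WT) mice and from mdx5cv mice, a strain with a mutation in the dystrophin gene that serves as a model of Duchenne muscular dystrophy. The cells had been cryopreserved and thawed, and were loaded on the 10x Genomics 3′ platform (v3.1 kit) for a target of 5000 cells per library. Each muscle and genotype is 1 library, 4 in all, and the labels state neither how many animals gave each nor their sex, so every comparison sets single libraries side by side, without replicates and without p-values. Muscle fibres, which are too large for droplets, are not among the cells sampled.

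Collagen chains fold in threes into a triple helix. The usual type I molecule holds a pair of alpha-1 chains, encoded by Col1a1, and a single alpha-2 chain, encoded by Col1a2, whereas type III is made of alpha-1 chains alone, encoded by Col3a1. Type V and type XI are minor chains that co-assemble with type I or with type II, help to start fibrils and limit their width. In skeletal muscle the fibroblasts of the interstitium, also called fibro/adipogenic progenitors, are the known main source of fibrillar collagen, and its build-up is the hallmark of fibrosis in dystrophic muscle. Tenocytes are the fibroblasts of tendon, whose matrix is mainly type I.

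The libraries held 18837891 unique molecular identifiers (UMIs, each marking 1 captured transcript) in WT quadriceps, 40226833 in WT diaphragm, 62780685 in mdx5cv quadriceps and 49612759 in mdx5cv diaphragm, which is the library order used below. Barcodes with at least 1000 UMIs, at least 500 genes and at most 15% mitochondrial UMIs were taken as cells, 4911, 7516, 8334 and 7402 of them, with median depths of 2055, 4355.5, 5328.5 and 4894.5 UMIs. The libraries shared 5 to 17 barcodes a pair, against 5.35 to 9.22 for independent draws. A cell was put in a class when it held at least 3 of that class's marker genes and at least 2 more than of any other class. Classes carry the ending -like since transcripts alone define them, and none of the 7 chains is a marker. Fibroblast-like cells numbered 907, 6301, 1431 and 3093, muscle stem cell-like cells 278, 83, 171 and 159, endothelial-like cells 2708, 76, 443 and 367 and immune-like cells 441, 846, 5803 and 3432. Tenocyte-like, mural-like (the pericytes and smooth muscle cells of vessel walls) and Schwann-like cells reached 20 cells in the quadriceps libraries only, at 41, 119 and 71 in WT and 37, 26 and 28 in mdx5cv. Cells with 3 or more markers of a second class and no such lead, 156, 32, 331 and 226, were set aside as mixed.

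The gate used these markers, so their levels describe the classes. Fibroblast markers summed to 12915, 15354, 8799 and 13164 UMIs per 1000000 UMIs of the class (CPM) in fibroblast-like cells, with 12 of 12 detected in each library. In tenocyte-like cells of quadriceps the 8 tenocyte markers summed to 17456 and 17202 CPM, and fibroblast markers reached 42.7% and 45.8% of their fibroblast-like level. In the other classes of at least 20 cells fibroblast markers stood at 0.588% to 7.53% of that level, the lowest in WT quadriceps immune-like and the highest in WT quadriceps Schwann-like cells. Free RNA was measured in barcodes with 10 to 100 UMIs, too few for a cell. There the 7 chains together stood at 2713, 8274, 11132 and 15998 CPM, and fibroblast markers at 16.9, 66.7, 26.2 and 42.7% of their fibroblast-like level. All levels are UMIs summed over a class, with exact 95% intervals in parentheses that cover counting error only. The chemistry counts transcript ends, so counts were not divided by length, and a chain's capture can differ from another's: a ratio of chains is compared between classes and libraries, not read as a ratio of molecules.

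The chains lie on 6 chromosomes (GENCODE M21, GRCm38). Col1a1 spans chr11:94936224-94953042, Col1a2 chr6:4504814-4541544, Col5a1 chr2:27886425-28039514 and Col11a1 chr3:114030540-114220718, all on the plus strand, and Col5a3 lies at chr9:20770050-20815067 on the minus strand. Col3a1 (chr1:45311538-45349706, plus) and Col5a2 (chr1:45374321-45503282, minus) are neighbours that face each other tail to tail, with 24.6 kb between their ends. Upstream sequence is shown for 3 chains that the class results of WT quadriceps turn on. There Col3a1 made up most of the 7 chains in muscle stem cell-like cells. Col5a3 took its largest share of the chains in Schwann-like and mural-like cells of that library, and Col11a1 its largest in Schwann-like and tenocyte-like cells. The stretches hold the 150 bases before the start in the RefSeq promoter table (GRCm38.p6), read 5′ to 3′ along each gene's strand, which are chr1:45311388-45311537, chr9:20815068-20815217 and chr3:114030390-114030539. That table matched 5 of the 7 chains, and Col1a1 and Col5a2 had no entry. Capitals mark a match on either strand to the letters of the TATA box (searched as TATAAA), of the CCAAT box (searched as CCAAT) or of the GC box (searched as GGGCGG).
Col3a1: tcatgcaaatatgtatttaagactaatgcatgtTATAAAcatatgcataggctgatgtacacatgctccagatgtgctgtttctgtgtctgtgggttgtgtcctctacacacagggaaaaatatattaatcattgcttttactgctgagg
Col5a3: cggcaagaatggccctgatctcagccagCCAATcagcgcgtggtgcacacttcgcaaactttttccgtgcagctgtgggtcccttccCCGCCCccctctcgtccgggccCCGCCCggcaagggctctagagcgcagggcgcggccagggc
Col11a1: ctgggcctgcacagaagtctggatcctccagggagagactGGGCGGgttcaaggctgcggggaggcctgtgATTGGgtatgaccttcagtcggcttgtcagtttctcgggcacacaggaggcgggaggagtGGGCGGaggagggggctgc
In windows from 250 bases before the start to 50 after it, TATAAA occurred in 1 of the 5 matched chains (Col3a1, with its first base 117 bases upstream), against 13.6% of the 32851 windows of the table. CCAAT occurred in 3 of the 5, against 37.4% of windows, and GGGCGG in 4 of the 5, against 35.7%. The Col3a1 window had no match to CCAAT or GGGCGG, whereas those of Col5a3 and Col11a1 had both and no TATAAA. These matches describe letters only.

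Type I chains were highest in tenocyte-like cells in both quadriceps libraries. Col1a1, the alpha-1 chain, stood at 8645 (8152 to 9160.2) CPM in WT and 15457 (14870.0 to 16061) in mdx5cv tenocyte-like cells. In fibroblast-like cells it stood at 2409 (2357 to 2462) in WT quadriceps, 1772 (1757 to 1787) in WT diaphragm, 11067 (11002 to 11132) in mdx5cv quadriceps and 6870.1 (6833 to 6908) in mdx5cv diaphragm. Both WT fibroblast-like values lie below both mdx5cv ones. Col1a2, the alpha-2 chain, had 10415 (9873 to 10979) and 18035 (17401 to 18687) CPM in tenocyte-like cells of WT and mdx5cv quadriceps. Its fibroblast-like levels were 4824, 4302, 11727 and 10362 CPM in library order, again with both mdx5cv libraries above both WT ones. In Schwann-like cells, the glia of peripheral nerve, those of WT quadriceps held Col1a2 at 965 (808 to 1144) CPM and those of mdx5cv quadriceps at 1366 (1118 to 1652), while their Col1a1 was 174 (112 to 259) and 271 (168 to 414). A limit on mitochondrial UMIs of 5% in place of 15% left 12 and 5 tenocyte-like cells, so these tenocyte-like values rest mostly on cells between both limits. Of the 41 cells in WT 17, and of the 37 in mdx5cv 13, led by only 2 markers, the least that the gate allowed. At most 1 fibroblast marker was held by 6 and 2 tenocyte-like cells, too few for levels with that limit.

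Muscle stem cell-like cells of WT muscle held almost no type I transcripts. Col1a1 counted 2 UMIs over the 278 cells of WT quadriceps, 3.25 (0.393 to 11.7) CPM, and Col1a2 5 UMIs, 8.12 (2.63 to 18.9) CPM. In WT diaphragm they counted 7 and 9 UMIs over 83 cells, 35.7 (14.4 to 73.6) and 45.9 (21.0 to 87.2) CPM. In mdx5cv the same cells had 1332 (1269 to 1396) CPM of Col1a2 in quadriceps and 827 (776 to 881) in diaphragm, and 245 (219 to 273) and 78.2 (63.1 to 95.8) of Col1a1. Mural-like cells had 97.4 (61.7 to 146) CPM of Col1a1 and 195 (143 to 259.8) of Col1a2 in WT quadriceps, and 126 (60.6 to 232) and 316 (204 to 466) in mdx5cv quadriceps. Immune-like cells were next to lowest for type I in both WT libraries, above stem cell-like cells in quadriceps and endothelial-like cells in diaphragm, at 7.70 and 17.1 CPM of Col1a1.

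Col3a1, the chain of the thin pliable fibrils that surround muscle fibres and vessels, was highest in fibroblast-like cells of all 4 libraries. It stood there at 6748 (6661 to 6836) CPM in WT quadriceps, 5781 (5754 to 5808) in WT diaphragm, 18183 (18100.0 to 18266) in mdx5cv quadriceps and 16724 (16666 to 16783) in mdx5cv diaphragm. Tenocyte-like cells held 1468 (1269.6 to 1689.7) and 3347 (3077 to 3634) CPM in WT and mdx5cv quadriceps, 21.8% and 18.4% of the fibroblast-like level. Muscle stem cell-like cells followed in WT quadriceps, at 540.5 (484 to 602) CPM, with 239.9 (176 to 319) in WT diaphragm, 1004 (949.5 to 1059.8) in mdx5cv quadriceps and 985 (929 to 1043) in mdx5cv diaphragm. With each cell thinned to 1000 UMIs, 39.2% (33.4 to 45.2) of WT quadriceps stem cell-like cells held a Col3a1 UMI, against 2.27% (1.09 to 4.13) of immune-like and 3.40% (2.75 to 4.15) of endothelial-like cells. The unthinned shares were 61.5%, 4.54% and 5.72%, at median depths of 2073, 3501 and 1684 UMIs. In WT quadriceps mural-like and Schwann-like cells Col3a1 stood at 318 (249.8 to 398) and 269 (189 to 370.2) CPM, 2 values whose intervals overlap.

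Among the type V chains, Col5a1 and Col5a2, which pair in the most common type V molecule, were highest in fibroblast-like cells. Col5a1 stood there at 556, 419, 1318 and 895 CPM in library order and Col5a2 at 651, 516, 1857 and 1244, with both mdx5cv values above both WT ones for each chain. In muscle stem cell-like cells Col5a1 was 71.4, 76.6, 229 and 202 CPM and Col5a2 89.3, 97.0, 351 and 192, 12.8% to 22.5% of the fibroblast-like level for Col5a1. Tenocyte-like cells held 467 (358 to 599) and 1242 (1079.5 to 1422) CPM of Col5a2 in WT and mdx5cv quadriceps, against 151 (92.0 to 233) and 503 (401 to 622) of Col5a1. Col5a2 counts exceeded those of Col5a1 in each class of at least 20 cells except mesothelial-like cells of both diaphragm libraries, stem cell-like cells of mdx5cv diaphragm, mural-like cells of mdx5cv quadriceps, and endothelial-like and immune-like cells of WT diaphragm, where the pair was reversed or, in the last, tied.

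Col5a3, a further type V chain known from nerve, muscle and fat, was also highest in fibroblast-like cells, and Schwann-like cells came closer to that level for it than for any other chain but Col11a1. In fibroblast-like cells it stood at 689.7 (662 to 718), 304 (298 to 311), 929 (911 to 949) and 609 (598 to 620.1) CPM in library order. The Schwann-like values in the WT and the mdx5cv quadriceps library were 276 (195 to 379) and 657 (489 to 864), 39.99% and 70.7% of the fibroblast-like level, where fibroblast markers reached 7.53% and 5.13%. Mural-like cells of the same libraries had 127 (85.7 to 181) and 202 (116 to 328) CPM, but the 22 mdx5cv cells with at most 1 fibroblast marker held 1 of the 16 UMIs. Schwann-like values with that limit were 265 and 714 CPM. Tenocyte-like cells, highest for type I, had 97.9 (52.1 to 167) and 112 (67.6 to 175) CPM of Col5a3, below the fibroblast-like and the Schwann-like level of the same library.

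Col11a1, a chain best known from cartilage, was highest in tenocyte-like cells. It counted 98 UMIs in 41 tenocyte-like cells of WT quadriceps, 738 (599 to 899) CPM, and 158 UMIs in 37 of mdx5cv quadriceps, 934 (794 to 1092) CPM. Fibroblast-like cells held 15.4, 2.19, 23.9 and 12.2 CPM in library order, from 52, 67, 240 and 229 UMIs. In barcodes with 10 to 100 UMIs Col11a1 stood at 72.15, 274.5, 74.6 and 128% of that level, above the fibroblast-like cells in both diaphragm libraries. After thinning, 48.8% (32.9 to 64.9) of WT and 51.4% (34.4 to 68.1) of mdx5cv tenocyte-like cells held a UMI of it, against 0.441% and 1.61% of fibroblast-like cells. Unthinned, these shares were 73.2% and 81.1% against 1.54% and 5.31%. Schwann-like cells came second, at 87.1 (45.0 to 152) and 116 (53.0 to 220.2) CPM from 12 and 9 UMIs. No UMI of Col11a1 was counted in mural-like cells of quadriceps or in stem cell-like cells other than 1 UMI in mdx5cv quadriceps.

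**Figure D1:**
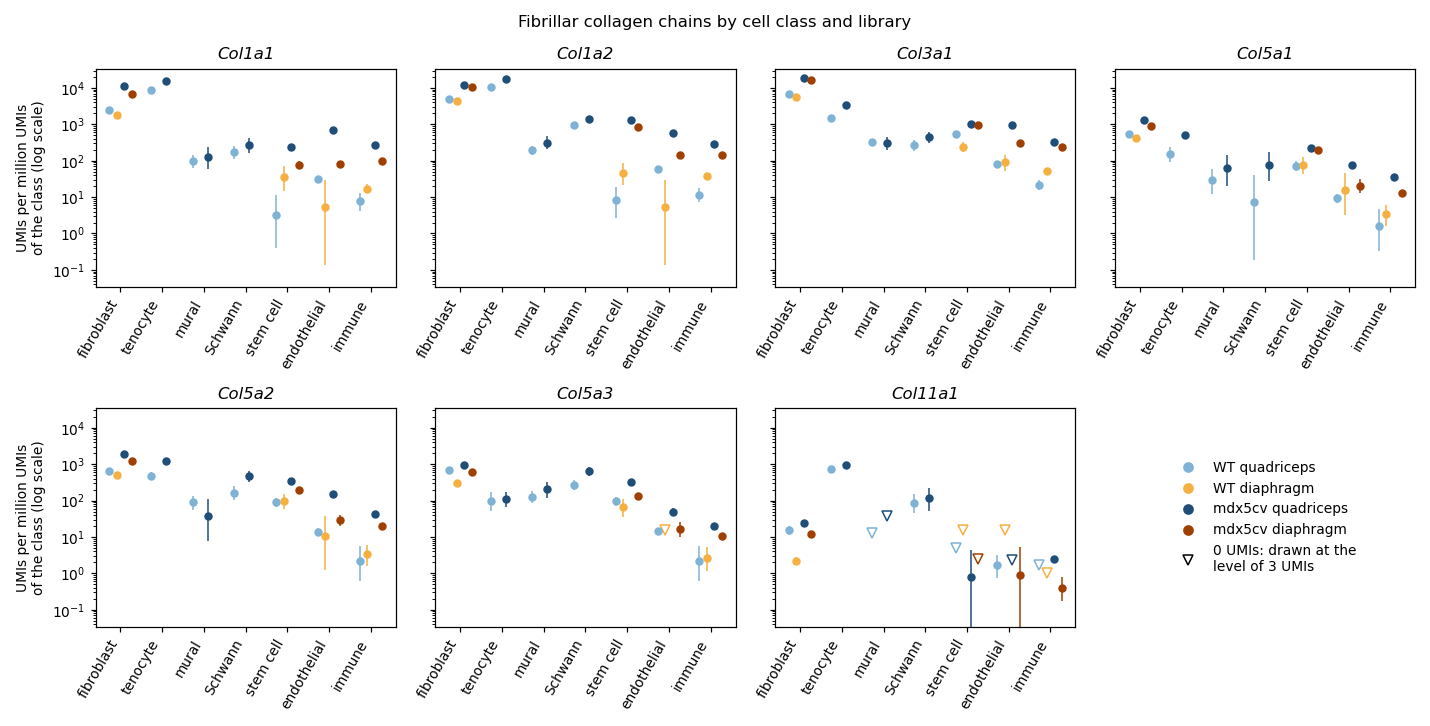
CPM of each chain (log scale) in 7 cell classes, 1 point per library, with exact 95% Poisson intervals and classes under 20 cells left out (class names are drawn without the ending -like). Open triangles stand for 0 UMIs and are drawn at the level of 3 UMIs. Col1a1 and Col1a2 are highest in tenocyte-like cells of the quadriceps libraries, Col3a1, Col5a1, Col5a2 and Col5a3 in fibroblast-like cells, and Col11a1 in tenocyte-like cells.

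Over 14 combinations of chain and quadriceps library, tenocyte-like cells were highest in 6 (Col1a1, Col1a2 and Col11a1 in both) and fibroblast-like cells in 8. Seen as shares of the 7 chains' UMIs, the classes had different make-ups. Type I chains made up 39.3% (Col1a1) and 47.4% (Col1a2) of the total in WT quadriceps tenocyte-like cells, and 15.2% and 30.4% in fibroblast-like cells of the same library. In WT quadriceps stem cell-like cells they made up 0.402% and 1.004%, while Col3a1 made up 66.9% and the 3 type V chains 8.84%, 11.04% and 11.8%. Col3a1 was 42.5% of the fibroblast-like and 6.68% of the tenocyte-like total there. Schwann-like cells had 49.6% Col1a2 and 14.2% Col5a3 in WT, 40.2% and 19.3% in mdx5cv quadriceps.

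**Figure D2:**
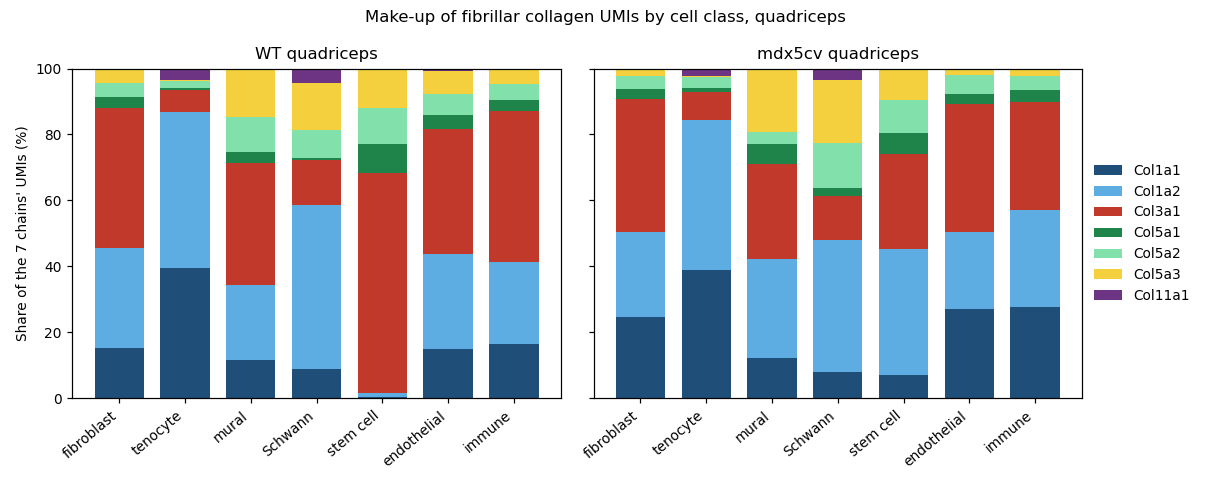
Share of the summed UMIs of the 7 chains held by each chain (percent, bars to 100) in 7 cell classes of WT quadriceps (left) and mdx5cv quadriceps (right). Col3a1 makes up 66.9% of the WT stem cell-like total and 28.8% of the mdx5cv one, where Col1a2 makes up 38.2%.

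By volume, fibroblast-like cells held 91.3%, 99.3%, 89.7% and 97.9% of the 7 chains' UMIs in cells placed in a class, in library order. Tenocyte-like cells held 4.96% in WT and 1.33% in mdx5cv quadriceps from fewer than 50 cells each. The share in immune-like cells, 7.39% in mdx5cv quadriceps, is described with those cells further on. Such shares follow how many cells of each class were recovered as well as the level per cell.

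The ratio of the type I chains set tenocyte-like, Schwann-like and mdx5cv stem cell-like cells apart from fibroblast-like cells of the same library. It also differed between libraries within fibroblast-like cells. There were 0.499 (0.486 to 0.513) Col1a1 UMIs per Col1a2 UMI in WT quadriceps, 0.412 (0.408 to 0.416) in WT diaphragm, 0.944 (0.936 to 0.952) in mdx5cv quadriceps and 0.663 (0.658 to 0.668) in mdx5cv diaphragm. The 4 intervals do not overlap, and both mdx5cv values exceed both WT values. The mdx5cv ratio was 1.89 times the WT ratio in quadriceps and 1.61 times in diaphragm. Tenocyte-like cells of the WT and the mdx5cv quadriceps had 0.830 (0.767 to 0.898) and 0.857 (0.813 to 0.903), 2 intervals that overlap. Schwann-like cells had 0.180 (0.112 to 0.280) and 0.198 (0.118 to 0.319), and mdx5cv stem cell-like cells 0.184 (0.163 to 0.207) in quadriceps and 0.0945 (0.0756 to 0.117) in diaphragm. Free RNA lay near the fibroblast-like cells of its library: barcodes with 10 to 100 UMIs had 0.489, 0.440, 0.857 and 0.674 in library order. So did the immune-like cells of mdx5cv, at 0.934 (0.909 to 0.959) in quadriceps and 0.714 (0.674 to 0.757) in diaphragm. In WT quadriceps, endothelial-like cells counted 172 Col1a1 and 330 Col1a2 UMIs and mural-like cells 23 and 46, also near the fibroblast-like ratio.

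**Figure D3:**
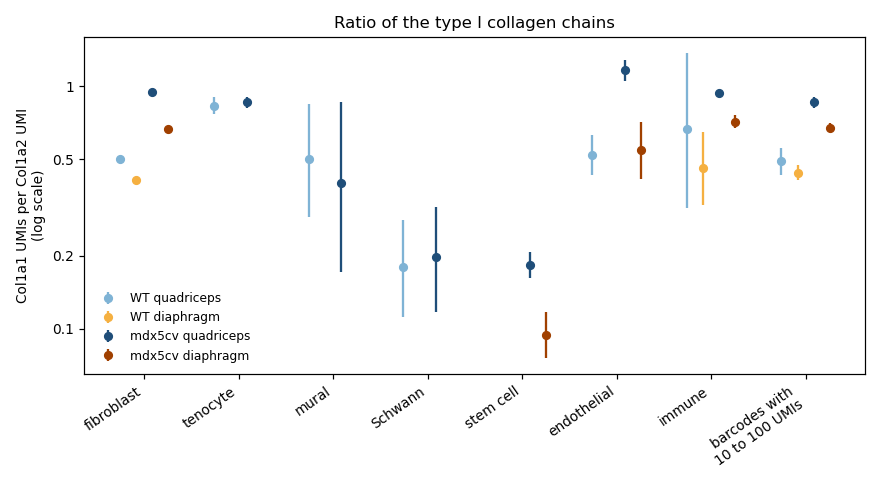
Col1a1 UMIs per Col1a2 UMI (log scale) by cell class and in barcodes with 10 to 100 UMIs, 1 point per library with exact 95% intervals, where at least 20 UMIs of the pair were counted and the class had at least 20 cells. Fibroblast-like cells and the low barcodes are both higher in mdx5cv than in WT, while Schwann-like and mdx5cv stem cell-like cells lie at 0.198 or below.

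Other pairs differed as well. Col3a1 per Col1a2 was 1.40, 1.34, 1.55 and 1.61 in fibroblast-like cells in library order, 0.141 and 0.186 in tenocyte-like cells of WT and mdx5cv quadriceps, and 0.278 and 0.330 in Schwann-like cells. In stem cell-like cells it was 66.6 (28.3 to 206) in WT quadriceps, from 333 and 5 UMIs, 5.22 (2.53 to 12.1) in WT diaphragm, 0.754 (0.701 to 0.811) in mdx5cv quadriceps and 1.19 (1.09 to 1.30) in mdx5cv diaphragm. In free RNA of WT quadriceps the same pair stood at 1.48 (1.35 to 1.63). Col5a3 per Col5a1 was 1.24, 0.727, 0.705 and 0.680 in fibroblast-like cells, with WT quadriceps above the other 3 libraries. It was 4.29 (1.84 to 11.6) in mural-like and 38 (6.42 to 1539.9) in Schwann-like cells of WT quadriceps, the last from 38 and 1 UMIs, and 8.50 (3.65 to 24.2) in Schwann-like cells of mdx5cv quadriceps. Col11a1 per Col5a2 was 1.58 (1.14 to 2.21) and 0.752 (0.608 to 0.929) in tenocyte-like cells of WT and mdx5cv quadriceps, against 0.00424 to 0.0236 in fibroblast-like cells.

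Between genotypes, the fibroblast-like cells of mdx5cv held more of these chains per UMI than those of WT in both muscles. Summed over the 7, the quadriceps level was 45105 CPM in mdx5cv against 15893 in WT, 2.84 (2.81 to 2.86)-fold or 1.505 on the log2 scale. The diaphragm level was 36716 against 13096, 2.80 (2.79 to 2.81)-fold or 1.49. A gene was tested where either library reached 5 CPM, and it was called higher or lower at a CPM ratio of 1.5 or more. In quadriceps 6 of 7 chains were called higher, against 21.1% of the 10935 genes tested, and in diaphragm 7 of 7, against 12.1% of 10392. None was called lower, against 15.8% and 10.2% of genes. The chains' median log2 ratio was 1.28 in quadriceps and 1.27 in diaphragm, where that of all genes tested was 0.07 and 0.08. Col1a1 was 4.59 (4.49 to 4.70)-fold higher in quadriceps and 3.88 (3.84 to 3.92)-fold in diaphragm, the highest ratio of the 7 in quadriceps and the highest after that of Col11a1 in diaphragm. Col1a2 was 2.43 (2.39 to 2.47) and 2.41 (2.39 to 2.43)-fold higher, Col3a1 2.69 (2.66 to 2.73) and 2.89 (2.88 to 2.91)-fold. Of the type V chains, Col5a1 and Col5a2 were 2.37-fold and 2.85-fold higher in quadriceps and 2.14-fold and 2.41-fold in diaphragm. Col5a3 had a ratio of 1.35 (1.29 to 1.41) in quadriceps, under the threshold, and 2.001 (1.95 to 2.06) in diaphragm. Col11a1, with 52 to 240 UMIs in a library, had 1.55 (1.15 to 2.14) and 5.58 (4.23 to 7.44). The interval in quadriceps spans the threshold of 1.5. Free RNA held Col11a1 above its fibroblast-like level in both diaphragm libraries, and the part of free RNA in the Col11a1 ratios was not tested. The 2 comparisons share no library.

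The fibroblast-like cells themselves differed between the libraries in other measured ways, and the part these played in the collagen ratios was not tested. Fibroblast markers summed to a lower level in mdx5cv, 8799 against 12915 CPM in quadriceps and 13164 against 15354 in diaphragm, with 12 of 12 detected throughout. Immune markers in the same cells summed to 25.8, 62.6, 359 and 301 CPM in library order, with 11 or 12 of 12 detected. Markers of the Pi16-expressing state, a fibroblast state of the tissue sheaths, summed to 3654, 3269.5, 529 and 845 CPM, with 8 of 8 detected in each library. Within cells of that state (428, 3606, 230 and 427 cells) the summed chains were 2.84 (2.80 to 2.88)-fold higher in mdx5cv quadriceps and 2.60 (2.58 to 2.62)-fold in mdx5cv diaphragm, and 7 of 7 chains were called higher in each, against 23.1% and 13.1% of genes. In the other fibroblast-like cells the ratios were 2.70 (2.67 to 2.73) and 2.69 (2.67 to 2.70), with 5 of 7 and 7 of 7 called higher, against 20.9% and 12.6%. In quadriceps the 2 chains not called in those other cells were Col5a3, 1.13 (1.07 to 1.199), and Col11a1, 0.852 (0.626 to 1.18), whose ratio within the Pi16 state, 13.9 (2.11 to 587), rests on 1 WT UMI and is 4.63 with that count set to the 3 UMIs used for calls. Per Col1a2 UMI, Col1a1 stood at 0.479 in WT and 0.880 in mdx5cv within the Pi16 state of quadriceps, and at 0.403 and 0.644 in that of diaphragm.

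Between muscles, diaphragm fibroblast-like cells held slightly less of the summed chains than quadriceps ones, 1.21-fold lower in WT and 1.23-fold lower in mdx5cv. In WT 2 of 7 chains were called lower in diaphragm, against 15% of 10525 genes, and in mdx5cv 3 of 7, against 13.3% of 10639. None was called higher, against 7% and 4.65% of genes. Col5a3 was 2.27-fold lower in WT and 1.53-fold lower in mdx5cv diaphragm, and Col11a1 7.04-fold and 1.959-fold lower, from few UMIs. Free RNA of both diaphragm libraries held Col11a1 above the fibroblast-like level. Col1a1 was 1.36-fold lower in WT and 1.61-fold lower in mdx5cv diaphragm, the third call in mdx5cv. Col1a2 and Col3a1 stayed within 1.17-fold between muscles in both genotypes. In WT, Col5a3 was 1.84-fold lower in diaphragm within the Pi16 state and 2.77-fold lower in the other fibroblast-like cells. The difference between the states was not tested.

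Muscle stem cell-like cells also held more fibrillar collagen UMIs in mdx5cv, with the largest ratio for Col1a2. Summed over the 7 chains, the level was 808 (739 to 882), 561 (461 to 677), 3490.2 (3389 to 3594) and 2419.7 (2332 to 2509.8) CPM in library order. Col1a2 was 164 (70.2 to 506)-fold higher in mdx5cv quadriceps and 18.01 (9.45 to 39.5)-fold in mdx5cv diaphragm, from 5 and 9 UMIs in the WT libraries. Col1a1 was 75.4 (20.7 to 626)-fold and 2.19 (1.02 to 5.59)-fold higher, from 2 and 7, and 50.3-fold in quadriceps with the WT count set to the 3 UMIs used for calls. Col3a1 was 1.86 (1.64 to 2.10)-fold and 4.10 (3.07 to 5.62)-fold higher. In each muscle 6 of 7 chains passed the CPM minimum, which Col11a1 did not, and the 6 were called higher, against 36.2% of genes in quadriceps and 23.3% in diaphragm. Thinned to 1000 UMIs, 0.719% (0.0872 to 2.57), 8.43% (3.46 to 16.6), 50.9% (43.1 to 58.6) and 40.9% (33.2 to 48.9) of these cells held a Col1a2 UMI, in library order. Unthinned, the shares were 1.80, 10.8, 78.9 and 76.1%, at median depths of 2073, 2197, 5301 and 5857 UMIs. Of the 278, 83, 171 and 159 cells, 94, 24, 51 and 63 led by only 2 markers, the least that the gate allowed. Only 3 stem cell markers, the minimum, were held by 67, 16, 16 and 23.

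Fibroblast transcripts were present in stem cell-like cells at low levels. Fibroblast markers summed to 506, 475, 547 and 568 CPM there in library order, or 3.92, 3.09, 6.22 and 4.32% of their fibroblast-like level. That share was higher in mdx5cv than in WT of each muscle. The part of fibroblast transcripts in the stem cell-like collagen levels was not tested. In cells with at most 1 fibroblast marker (217, 65, 71 and 70 cells) Col1a2 was 10.9, 46.0, 1243 and 567 CPM and Col3a1 579.6, 223, 701 and 661. There Col1a2 was 114-fold higher in mdx5cv quadriceps and 12.3-fold in mdx5cv diaphragm, and the ratio of the 7 chains was 3.27 and 3.02. The ratio of Col3a1 in quadriceps, 1.21, and those of Col1a1, 1.35, and Col5a3, 1.48, in diaphragm were then under 1.5. The share of all genes called was not computed for cells with that limit. The Col1a1 to Col1a2 ratios of mdx5cv, 0.184 and 0.0945, lie below those of the fibroblast-like cells and of the free RNA of the same libraries, 0.944 and 0.663, and 0.857 and 0.674. The stem cell markers themselves summed to 4303, 3618, 2261 and 2000.2 CPM, lower in both mdx5cv libraries, with 10 of 10 detected in each, and the part of this in the collagen ratios was not tested.

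Immune-like and endothelial-like cells showed higher summed levels in mdx5cv too, carried by few cells. The 7 chains summed to 46.8, 116, 982 and 521 CPM in immune-like cells and 212, 126, 2534 and 595 in endothelial-like cells, in library order. Of the 7 chains 6 passed the CPM minimum in immune-like cells and all 6 were called higher in each muscle, against 27.7% and 28.4% of genes. In endothelial-like cells 6 were called higher in quadriceps, against 24.3% of genes, and 4 in diaphragm, against 13.9%. The WT diaphragm sum of endothelial-like cells rests on 24 UMIs. After thinning, 87.3% of mdx5cv quadriceps immune-like cells held no UMI of the 7 chains, the 10% of cells with most held 94.2% of the UMIs, and the highest cell 80 of its 1000. For endothelial-like cells of that library the values were 81.7%, 87.2% and 99. In mdx5cv quadriceps stem cell-like cells the 10% of cells with most held 26.2% and the highest cell 21. Restricted to cells with at most 1 fibroblast marker, the immune-like sum went from 982 to 105 CPM in mdx5cv quadriceps and from 521 to 137 in mdx5cv diaphragm, and the endothelial-like sum from 2534 to 151 in mdx5cv quadriceps. The WT sums with that limit were 27.4 CPM for immune-like cells of quadriceps, 92.8 for those of diaphragm and 78.1 for endothelial-like cells of quadriceps. The ratio of the immune-like sums was then 3.84 in quadriceps and 1.48 in diaphragm, in place of 21.0 and 4.48. In immune-like cells of diaphragm Col1a2 and Col3a1 then had ratios of 1.25 and 1.41, Col1a1 one of 2.17, and each type V chain stood under 5 CPM, so that of the calls in diaphragm only that of Col1a1 held. In quadriceps Col1a1, Col1a2, Col3a1 and Col5a2 kept ratios of 4.74, 5.85, 3.12 and 2.99, while Col5a1 and Col5a3 stood under 5 CPM. The ratio of the endothelial-like sums was 1.93 and 1.37, in place of 11.96 and 4.71. Col5a3 turned in quadriceps, with a ratio of 0.532, where Col5a2 had 1.43, and Col3a1 and Col5a1 turned in diaphragm, with 0.899 and 0.373, where of the earlier calls only that of Col1a2 held. In these diaphragm cells WT counted 1 UMI of Col1a2, 3 of Col5a1 and 17 of Col3a1, against 46, 6 and 82 in mdx5cv. The Col1a2 ratio was 2.86 with the WT count set to the 3 UMIs used for calls. For cells with at most 1 fibroblast marker the share of all genes called was not computed, so the calls that held have no background beside them. With clusters in place of the gate the endothelial-like ratio in diaphragm was 0.678. The stem cell-like sum went from 3490.2 to 2824 and from 2419.7 to 1669. In lymphocyte-like cells, which should lack these transcripts, 9.29% (7.30 to 11.6) of mdx5cv diaphragm cells held a Col3a1 UMI after thinning, against 8.54% (7.62 to 9.52) of all immune-like cells there, at median depths of 2602 and 4996 UMIs. Unthinned, the shares were 23.1% and 31.1%. In mdx5cv quadriceps the thinned shares were 6.86% (3.80 to 11.2) and 6.29% (5.68 to 6.95). The intervals overlap in both, but the lymphocyte-like cells (743 in mdx5cv diaphragm and 204 in mdx5cv quadriceps) are themselves part of the immune-like class. Summed over the 7 chains, lymphocyte-like cells stood at 4.73% and immune-like cells at 2.18% of the fibroblast-like level in mdx5cv quadriceps, and at 0.470% and 1.42% in mdx5cv diaphragm. The part of free RNA and of mixed cells in the immune-like values was not tested.

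Tenocyte-like cells held 1.80 (1.73 to 1.88)-fold more of the summed chains in mdx5cv, with 5 of 7 called higher, against 13.5% of genes. Col1a1 was 1.79 (1.67 to 1.92)-fold higher, and Col11a1 had a ratio of 1.27 (0.978 to 1.65), with an interval that includes 1. Whether these ratios differ from the fibroblast-like ones was not tested. Schwann-like cells held 1.75 (1.47 to 2.08)-fold more and 5 of 7 were called higher, a share near the 60.1% of all genes called higher there. In cells with at most 1 fibroblast marker the ratio was 1.58, and Col1a1, called higher before, had 1.12. Mural-like cells had a ratio of 1.23 (0.937 to 1.59), with an interval that includes 1, from 202 UMIs in WT and 83 in mdx5cv. It was 0.795 in cells with at most 1 fibroblast marker, 0.915 with cells thinned to 1000 UMIs and 6.23 with clusters in place of the gate, so its direction was not settled. Of 6 chains past the CPM minimum there 3 were called higher, against 53.8% of genes, and Col5a2 was called lower on 3 mdx5cv UMIs, against 7.9%.

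Mesothelial-like cells, the lining of the body cavities, were found in the diaphragm libraries only (88 and 45 cells). Their sum was 5369.7 (5159 to 5587) CPM in WT and 4971 (4677 to 5278) in mdx5cv diaphragm, 2 intervals that overlap, where the fibroblast-like sum of the same pair was 2.80-fold higher in mdx5cv. Col5a3 stood at 8.81 and 4.67 CPM in them, from 4 and 1 UMIs, with Col5a1 at 106 and 117.

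Per cell, fibroblast-like cells of mdx5cv held more at the low end, the middle and the high end of the distribution. Thinned to 1000 UMIs, the median cell held 13, 11, 35 and 27 UMIs of the 7 chains in library order. The 10th and 90th percentiles were 5 and 29 in WT quadriceps, 4 and 25 in WT diaphragm, 11 and 79 in mdx5cv quadriceps and 9 and 66 in mdx5cv diaphragm. The median mdx5cv quadriceps cell thus lay above the 90th percentile of WT quadriceps, and that of mdx5cv diaphragm above the 90th percentile of WT diaphragm. The 10% of cells with most held 27.4, 26.0, 23.7 and 24.9% of the UMIs, lower in mdx5cv than in WT of each muscle. These shares include counting noise, which weighs more at the lower WT counts, and its part in the difference was not tested. Cells without any UMI of the 7 made up at most 0.441% in each library. Cells of a library share their source, so these are descriptions of 4 libraries.

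**Figure D4:**
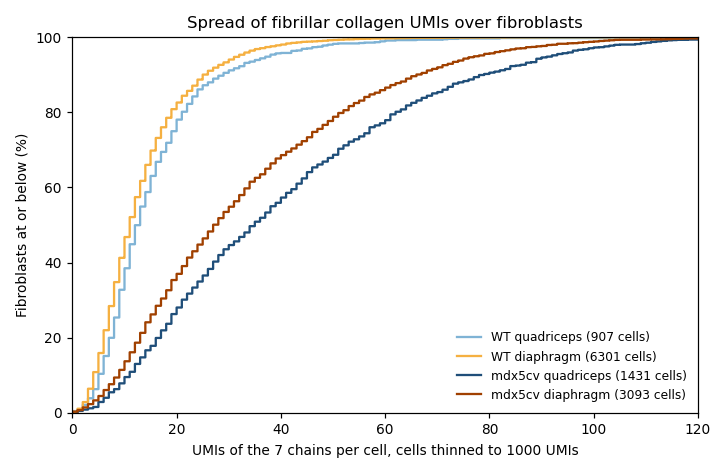
Cumulative share of fibroblast-like cells (percent) by UMIs of the 7 chains per cell, each cell thinned to 1000 UMIs, 1 line per library. Both mdx5cv lines lie to the right of both WT lines over most of their length, with medians of 35 and 27 against 13 and 11.

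Single chains varied from cell to cell to different degrees. Col1a1 had no UMI in 18.3, 27.1, 4.61 and 8.05% of thinned fibroblast-like cells in library order, Col1a2 in 5.51, 5.59, 1.89 and 2.65% and Col3a1 in 3.64, 4.82, 1.61 and 2.07%. The squared coefficient of variation beyond counting noise was 0.840, 0.778, 0.733 and 0.711 for Col1a1 and 0.577, 0.376, 0.364 and 0.405 for Col1a2, higher for Col1a1 in each library. Across cells Col1a1, Col1a2 and Col3a1 correlated with each other at Pearson's r of 0.492 to 0.649 in WT quadriceps (907 cells), 0.491 to 0.561 in WT diaphragm (6301), 0.683 to 0.715 in mdx5cv quadriceps (1431) and 0.711 to 0.747 in mdx5cv diaphragm (3093). The cells share a library and a fixed depth, and Col5a3, with few UMIs per cell, gave values of at most 0.0807 with either type I chain. Counting noise lowers such values more at the lower WT counts, and its part in the difference between genotypes was not tested.

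In 3 of the 4 libraries, fibroblast-like cells with most Col3a1 had more Col1a1 per Col1a2 than those with least, beyond counting error. Fibroblast-like cells were ordered by their thinned count of Col3a1, a chain that the ratio does not contain, and cut into 4 equal groups. From the lowest to the highest group Col1a1 per Col1a2 was 0.701, 0.723, 0.919 and 1.05 in mdx5cv quadriceps, and 0.484, 0.588, 0.652 and 0.704 in mdx5cv diaphragm. In WT diaphragm it was 0.385, 0.379, 0.396 and 0.473, and in WT quadriceps 0.456, 0.547, 0.504 and 0.528, where the intervals of the lowest and highest group overlap (0.396 to 0.523 and 0.487 to 0.572). The lowest mdx5cv quadriceps group, with a mean of 3.53 Col3a1 UMIs per cell, had a higher ratio than the highest WT quadriceps group, with 14.9.

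**Figure D5:**
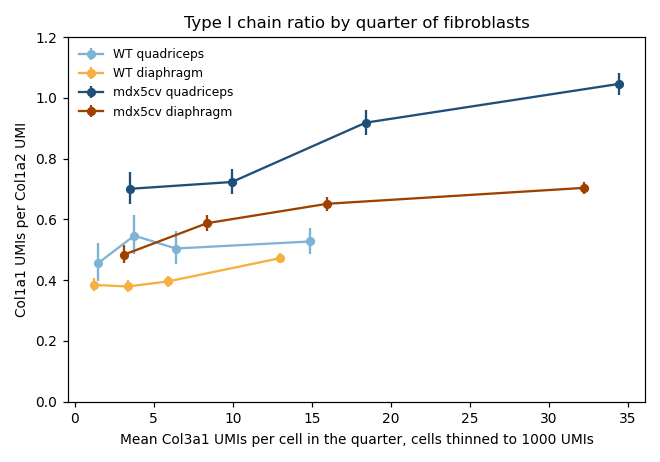
Col1a1 UMIs per Col1a2 UMI in 4 equal groups of fibroblast-like cells ordered by Col3a1, against the mean Col3a1 UMIs per cell of the group (cells thinned to 1000 UMIs), 1 line per library with exact 95% intervals. Both mdx5cv lines climb (0.701 to 1.05 for quadriceps, 0.484 to 0.704 for diaphragm), and the mdx5cv quadriceps line lies above the other lines in each group.

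Of 50 listed genes that act on fibrillar collagen, 45 passed the CPM minimum in the quadriceps genotype comparison of fibroblast-like cells, with 23 calls higher and 4 lower, beside 21.1% and 15.8% of all genes. In diaphragm 41 passed, with 16 calls higher and 2 lower, beside 12.1% and 10.2%. Their median log2 ratio was 0.73 and 0.44, beside the 0.07 and 0.08 of all genes. By role, the genes of folding, modification and export counted 23, of which quadriceps called 13 higher and 1 lower and diaphragm 8 higher. Crosslinking enzymes had 3 of 5 higher in quadriceps and 1 of 4 in diaphragm, genes of uptake and breakdown 3 of 5 and 3 of 4, and propeptide removal 1 of 5 and 1 of 4 with 1 lower in each. The count for propeptide removal in quadriceps is near the 21.1% of all genes called higher, and in such small groups 1 gene moves the share widely. Among 6 collagen receptors, the quadriceps comparison called 2 higher and 2 lower, and the diaphragm one called 2 of 5 higher and 1 lower. Called higher in both muscles were 14 genes, and the 6 with the largest smaller ratio were P4ha3, Mmp14, Col27a1, Fkbp10, Plod2 and Plod1. The share of all genes called in 1 direction in both muscles was not computed, so such counts have no background beside them.

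P4ha3, a subunit of the prolyl hydroxylase that stabilises the triple helix, stood at 72.1 CPM in mdx5cv against 2.07 in WT quadriceps, 34.8 (16.8 to 86.8)-fold from 7 WT UMIs, and at 24.0 against 2.06 in diaphragm, 11.7 (8.96 to 15.5)-fold. Mmp14, a membrane protease that cuts collagen, was 4.22 (3.81 to 4.70)-fold and 3.69 (3.50 to 3.89)-fold higher. Col27a1, a fibrillar chain known from cartilage, was 3.29 (2.77 to 3.92)-fold and 3.47 (3.13 to 3.85)-fold higher. Fkbp10, a collagen chaperone, had ratios of 3.67 (3.16 to 4.29) and 2.34 (2.21 to 2.47), Plod2, which hydroxylates the lysines used in crosslinks, 3.53 (3.03 to 4.12) and 2.15 (2.04 to 2.26), and Plod1, which acts on helix lysines, 2.02 (1.74 to 2.34) and 1.98 (1.85 to 2.12). Called lower in both were Pcolce2, which enhances propeptide removal, 8.68-fold lower in quadriceps and 6.94-fold in diaphragm, and Itga2, a subunit of a collagen-binding integrin, 5.40-fold and 2.65-fold lower from 27 to 199 UMIs a library.

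Over the 22 pairs of class and library with at least 30 cells, the genes whose log2 CPM followed that of the 7 summed chains most closely, among 11665 genes, were Mfap2 (r = 0.957), Col6a2 (0.949), Ikbip (0.941), Col6a1 (0.936), Copb2 (0.935), Kdelr3 (0.932), Bgn (0.923), Sec22b (0.920), Txndc5 (0.917) and Ckap4 (0.913). Mfap2 encodes a microfibril protein and Col6a1 and Col6a2 encode chains of beaded-filament collagen VI. Bgn encodes the proteoglycan biglycan, and Copb2, Kdelr3 and Sec22b act in traffic between the endoplasmic reticulum and the Golgi. The highest level was in mdx5cv fibroblast-like cells for 9 of the 10 and in mdx5cv quadriceps tenocyte-like cells for Mfap2. Among the chains themselves, Col1a1 and Col1a2 followed each other at r = 0.969 over these pairs, Col3a1 and Col5a1 at 0.951, and Col5a1 and Col11a1 at 0.385. The pairs share libraries and, within a library, free RNA, so these values are descriptions.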

How the data were processed

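Droplet libraries of 4 samples gave unfiltered tables of UMI counts per gene and barcode, made by the authors with Cell Ranger 5.0.0 and mm10, per the submitters' processing notes; the deposited matrix headers name version 4. No source used here names the annotation. Counts were used as deposited, with no normalization. Analysis used Python 3.11.15, numpy 2.4.6, scipy 1.17.1, pandas 2.3.3, and for the cluster alternative sklearn 1.9.0, igraph 0.11.9 and leidenalg 0.10.2. Figures used matplotlib 3.10.9.

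The members, gene lists and rules were chosen with earlier results of these data known. The gate's scoring rule, and the alternative that keeps cells with at most 1 fibroblast marker, were chosen after seeing the counts. Mixed cells were left out as likely doublets, and no doublet caller was run. A gene is called at a CPM ratio of 1.5 or more with at least 5 CPM in 1 library, and for calls a count under 3 UMIs is set to 3; printed ratios use the counts as they are. With 1 library a group there is no test. Poisson, conditional and Clopper-Pearson intervals cover counting error. Likeness used log2(CPM + 1) over genes of at least 20 CPM in 1 pair, naming the first 10. Listed partner genes were named if both muscles called them in 1 direction, at most 6 per direction, by the smaller ratio. In simulated data for the fibroblast-like comparisons, 100% of 50 genes changed 2-fold and of 50 changed 3-fold were called in each muscle. Of unchanged genes, 2.61% of 10434 were called in quadriceps and 0.0302% of 9938 in diaphragm. The simulated counts varied by counting error alone, and changed genes came only from levels above the CPM minimum for calls. These shares thus give no error rate for differences between animals or libraries.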

Additional observations from a re-analysis of the deposited data

How the results depend on the processing

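No paired analysis was possible because each group is 1 library. The main comparisons had 48 values under alternatives, of which 24 moved beyond their counting error (or, for a count, by over 1.5 times) and 0 reversed. Among the 48 are the per-cell shares and the counts of leading classes, which have no direction and could not reverse. The other values had 248, of which 119 moved; levels, which have no direction, are among these. The cause was not tested. For the fibroblast-like sum of the 7 chains, the log2 ratio of mdx5cv over WT in quadriceps (1.505) was 1.5588 with clusters in place of the gate, 1.3671 with cells thinned to 1000 UMIs, 1.5483 with the class total taken without the chains, 1.5441 without the 5% of barcodes with most UMIs and 1.4394 with the lymphocyte-like level subtracted. In diaphragm (1.49) it was 1.5013, 1.3028, 1.5222, 1.4675 and 1.4938 in the same order, 1.5009 with at least 2000 UMIs per barcode and 1.6423 with a mitochondrial limit of 5%. The quadriceps subtraction rests on 19 lymphocyte-like cells in WT, with 2 UMIs of the 7 chains, and on 204 in mdx5cv. The fold of the Col1a1 to Col1a2 ratio was 1.9573 with clusters and 1.7672 thinned in quadriceps, and in diaphragm 1.6647 with the mitochondrial limit of 5%, 1.5293 thinned and 1.5808 without the 5% of barcodes with most UMIs. Of 14 combinations of chain and quadriceps library, 8 kept the leading class under the 5% limit and 8 with clusters, as tenocyte-like cells then fell under the 20 cells compared. No cluster was named tenocyte-like. The share of UMIs in the 10% of fibroblast-like cells with most was 26.221, 25.545, 22.982 and 24.536% when thinned to 2000 UMIs, in library order, and 25.253% in mdx5cv diaphragm without the 5% of barcodes with most UMIs. Smaller classes depended more on the gate: with clusters the mdx5cv quadriceps sum was 9801 CPM in Schwann-like cells (3402 with the gate) and 8869 in mural-like cells (1048). The mdx5cv over WT ratio of the summed chains turned in 2 classes: mural-like cells of quadriceps (1.23) had 0.795 in cells with at most 1 fibroblast marker and 0.915 thinned, and endothelial-like cells of diaphragm (4.71) had 0.678 with clusters. The quadriceps log2 ratio of Col11a1 ran from 0.27 to 1.35. Low counts of Col11a1 and of type I in WT stem cell-like cells limit their ratios.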
